A study of Mus musculus with 167 samples.

Results

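MicroRNA (miRNA) abundance was compared between the whole lung of irradiated and sham irradiated C57Bl/6 mice. The comparison took every lung library that the labels assigned to this strain, 5 irradiated and 15 sham, 20 of the 167 libraries of the series. The irradiated mice had received whole thorax lung irradiation (WTLI), in which the chest was exposed once under shielding of all other parts of the body, and the controls had received a sham exposure. Lungs were taken in month 6 from animals that had reached the study end point, so the irradiated group represents only survivors. The labels gave 4 males and 1 female in the irradiated group and 8 males and 7 females in the sham group, and the sample titles gave each library its own animal. The titles also carried a letter of unstated meaning, A in 2 irradiated and 8 sham libraries and B in 3 irradiated and 7 sham libraries. No transgene was named for either group, and per the study's methods ketamine and xylazine served as anaesthetics for the exposure.

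MiRNAs are short RNAs cut from the arms of hairpin transcripts, named 5p or 3p after the arm. Each guides a silencing complex to messenger RNAs, mostly through its seed, bases 2 to 8 from the 5′ end, so miRNAs with 1 seed can share targets. In the lung, miR-126a marks endothelium, the miR-200 family marks epithelium, miR-34b, miR-34c and miR-449 mark ciliated cells, and miR-21a is known as a miRNA of injury and fibrosis. MiR-34a is a direct target of the DNA damage regulator p53.

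Mature sequences of the miRNAs on which the results turn are given below, taken from RefSeq (build GRCm38.p6) and written 5′ to 3′ with the seed in capitals. MiR-7, miR-10 and miR-196 are shown as near-identical pairs that share a seed. MiR-10a-5p and miR-10b-5p moved in opposite directions, and miR-7a-5p rose less than miR-7b-5p. Both miR-196 members had a higher mean after WTLI.
miR-7b-5p: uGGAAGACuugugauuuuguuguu
miR-7a-5p: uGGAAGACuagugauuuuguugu
miR-10b-5p: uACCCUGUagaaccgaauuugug
miR-10a-5p: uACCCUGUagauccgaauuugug
miR-196b-5p: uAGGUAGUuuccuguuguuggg
miR-196a-5p: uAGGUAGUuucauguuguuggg
Counting positions from 1 at the 5′ end, the step from miR-7a-5p to miR-7b-5p is A10U, that from miR-10a-5p to miR-10b-5p is U12A, and that from miR-196a-5p to miR-196b-5p is A12C, each outside the seed. How reads that match both members of such a pair were assigned was not stated, so the split of reads within a pair is uncertain.

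The next sequences are those of imprinted clusters, of miR-184 and of miR-21a, all higher after WTLI. MiR-376a-3p and miR-376b-3p differ by G4A, A13C and G20U, and the first of these lies in the seed.
miR-541-5p: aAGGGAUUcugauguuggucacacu
miR-376b-3p: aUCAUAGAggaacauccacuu
miR-376a-3p: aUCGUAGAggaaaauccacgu
miR-335-5p: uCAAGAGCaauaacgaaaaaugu
miR-184-3p: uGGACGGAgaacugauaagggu
miR-21a-3p: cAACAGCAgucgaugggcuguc

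The last set holds miRNAs called lower after WTLI, miR-208b-3p and those of introns of Htr2c, together with miR-208a-3p, which was not called and is shown as the near-identical partner of miR-208b-3p. MiR-208a-3p and miR-208b-3p share a seed and differ by G10A, A16G and C18U.
miR-208b-3p: aUAAGACGaacaaaagguuugu
miR-208a-3p: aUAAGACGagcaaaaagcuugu
miR-1912-3p: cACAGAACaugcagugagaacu
miR-1264-3p: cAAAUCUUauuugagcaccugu
miR-1298-5p: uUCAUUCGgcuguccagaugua
miR-1298-3p: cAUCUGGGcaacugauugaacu

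Library totals were 3572446 to 4582208 reads in the irradiated group and 2024219 to 4328330 reads in the sham group, and values are given as reads per 1000000 reads of the library total (RPM). The lung label was checked against its markers. MiR-126a-3p took 33.8% of the counts on average and both miR-200 and miR-34b/c markers were present in all libraries. A count of 0 allows a level of up to 3 counts, 0.655 to 0.840 RPM in the irradiated libraries and 0.693 to 1.48 RPM in the sham libraries, for counting error only. The 3 lung libraries of lowest rank correlation with the others of the comparison are referred to as those that stood apart. Their number was chosen after the data were seen, without a clear break from the next libraries. Sham replicates 1 and 4 and irradiated replicate 1, all males of letter A, had median correlations of 0.941, 0.933 and 0.940, against 0.949 to 0.975 for the other 17 libraries. Calls that changed without these 3 libraries are given as well. Sham replicates 1 and 4 held the highest sham values of miR-21a-5p, of miR-34a-5p and of the leukocyte marker sum. For these, a larger change and less overlap without the 3 libraries follow in part from that removal.

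Of the 1915 miRNAs in the table, 350 passed the filter on low counts and were tested. In limma with quantile normalisation, in a fit of all 35 lung libraries that took its spread from both strains, 21 miRNAs (6%) were called, 13 higher (3.71%) and 8 lower (2.29%) after WTLI. A call required an adjusted p under 0.05 together with a log2 change of 1.17 or more in size, the fold minimum of the study. By adjusted p alone 58 passed (16.6%), and 117 (33.4%) had an unadjusted p under 0.05. The median change of all 350 was -0.05 on the log2 scale. The balance of higher and lower calls depended on scaling, since library size alone, which moved that median to 0.12, gave 20 higher and 2 lower. All 13 miRNAs called higher were also called by edgeR, by DESeq2 and by voom with TMM factors or library size alone, while 2 of the 8 called lower were, miR-208b-3p and miR-1912-3p. Without the 3 libraries that stood apart 23 were called, 17 higher and 6 lower, and 16 of these were among the 21. The 5 lost were miR-541-5p (1.15), miR-216a-5p (1.13) and miR-491-5p (-1.11), which kept an adjusted p under 0.05, and miR-1941-3p (-1.06, adjusted p = 0.0695) and miR-3097-3p (-1.10, adjusted p = 0.0789). The 7 gained were miR-124-3p (2.2), miR-9-3p (1.54), miR-34a-5p (1.39), miR-335-3p (1.22), miR-147-3p (1.18) and miR-122-5p (1.17), all higher, and miR-499-5p (-1.33). With the C57 lung libraries alone 11 were called, 10 higher and 1 lower, and 9 of these were among the 21. In letter A alone 3 were called and in letter B alone 23, and 3 were called in C57 males alone and 17 with sex as a term.

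**Figure D1:**
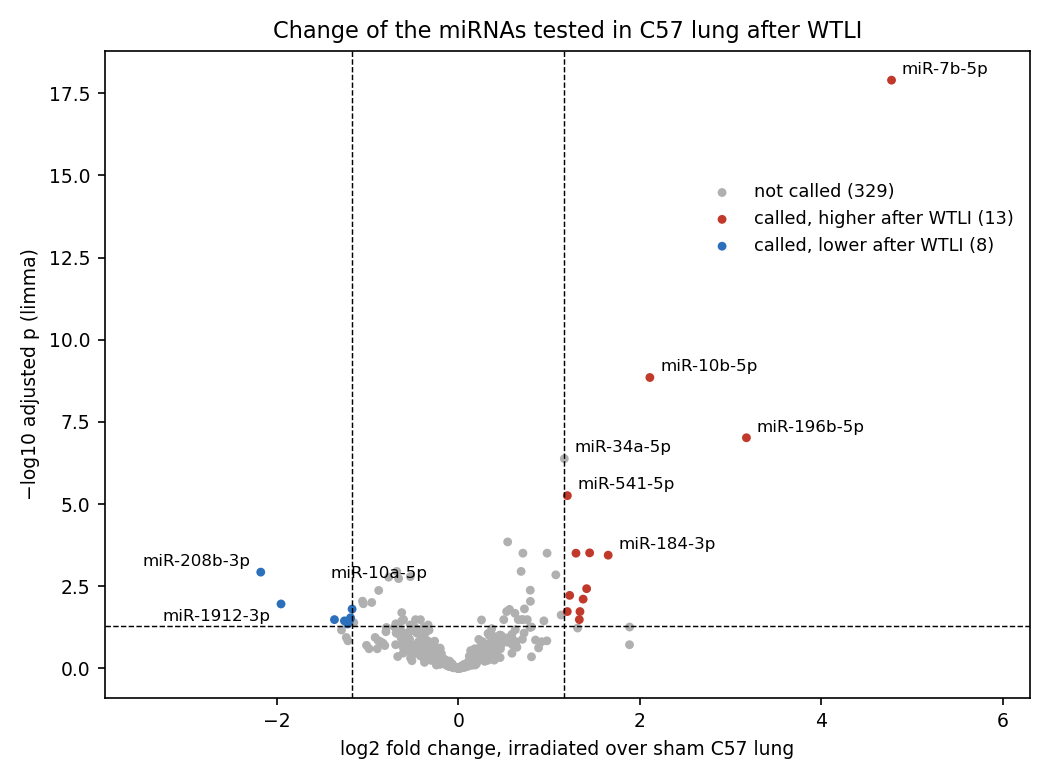
Log2 fold change (x axis, irradiated over sham) and -log10 of the limma adjusted p (y axis) of the 350 miRNAs tested in C57 lung, with dashed lines at the fold minimum (1.17) and the adjusted p of 0.05. MiR-7b-5p stands at 4.78 on the x axis, miR-196b-5p at 3.18 and miR-10b-5p at 2.11, and the 8 miRNAs called lower are on the left.

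The groups did not overlap for a small share of miRNAs. All 5 irradiated libraries lay above all 15 sham libraries for 6 of the 350 miRNAs (1.71%), namely miR-27b-3p, miR-379-5p and 4 called miRNAs (miR-7b-5p, miR-196b-5p, miR-10b-5p and miR-541-5p). No miRNA had all 5 irradiated libraries below all 15 sham libraries (0%). Without the 3 libraries that stood apart, all 4 irradiated libraries lay above all 13 sham libraries for 17 miRNAs (4.86%), miR-34a-5p, miR-184-3p and miR-21a-5p among them, and below them for 3 (0.857%), miR-30a-5p, miR-30a-3p and miR-203-3p.

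MiR-7b-5p, a miRNA of neuronal and endocrine cells, showed the largest change. Its hairpin lies at chr17:56242988-56243098 (plus strand) outside annotated host genes. Irradiated replicates 1 to 5 held 623, 306, 1066, 857 and 1122 RPM, and the sham libraries had a lowest value of 10.8, a median of 24.8 and a highest of 33.1 RPM. The groups were far apart, and every irradiated library was above every sham library. The log2 fold change was 4.78 ± 0.24 (SE), with an adjusted p of 1.26e-18. The change was 4.02 among libraries of letter A and 5.42 among those of letter B. In sham C57 mice miR-7b-5p averaged 9845 RPM in brain and 4.23 RPM in heart.

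The near-identical miR-7a-5p was much less changed. It held 425, 304, 437, 464 and 418 RPM after WTLI, against a lowest, median and highest sham value of 180, 225 and 398 RPM. In all, 4 irradiated libraries lay above all sham libraries and replicate 2 fell among them. Its log2 fold change was 0.53 ± 0.16 (adjusted p = 0.0185), under the fold minimum. The other arm, miR-7b-3p, had at most 1 count in any irradiated library and 0 in all sham libraries, so the abundance of the hairpin rested on the 5p arm. In sham lung miR-7a-5p was the more abundant of the pair, and in the 5 irradiated libraries miR-7b-5p was, narrowly so in replicate 2.

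**Figure D2:**
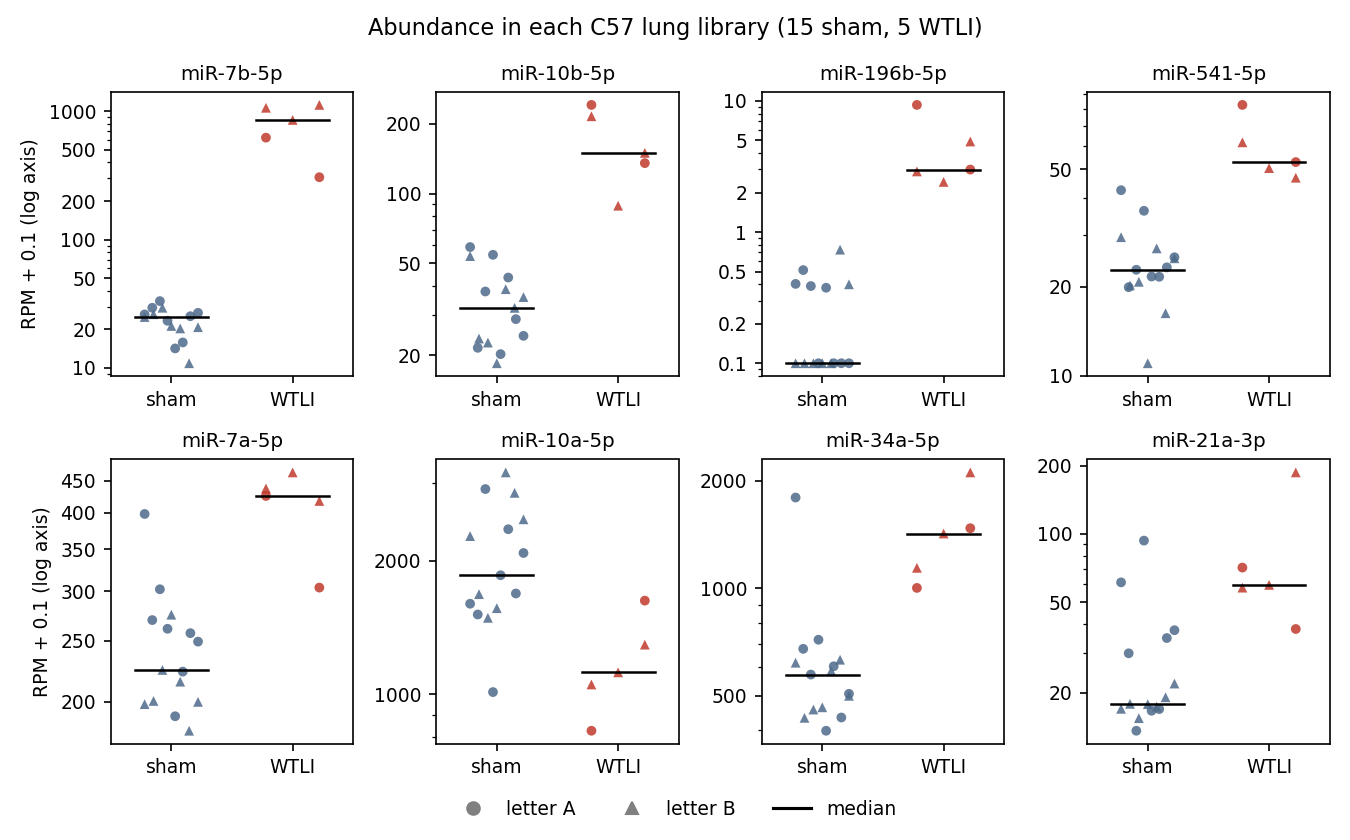
RPM plus 0.1 (y axis, log scale) of 8 miRNAs in each of the 15 sham and 5 irradiated (WTLI) C57 lung libraries, with circles for letter A, triangles for letter B and lines at group medians. The upper 4 miRNAs (miR-7b-5p, miR-10b-5p, miR-196b-5p and miR-541-5p) have no overlap between the groups, and the lower 4 overlap.

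MiRNAs of the Hox clusters, which lie among the genes that set positional identity, moved in opposite directions. Of 4 tested members, miR-10b-5p and miR-196b-5p were higher and miR-10a-5p was lower by adjusted p, against 9.43% higher and 7.14% lower of all tested miRNAs. MiR-10b lies at chr2:74726070-74726137 (plus strand) in introns of Hoxd3 and Hoxd4, and miR-196b lies at chr6:52230081-52230165 (minus strand) in an exon of Hoxa9. MiR-10b-5p held 242, 135, 215.8, 88.6 and 150 RPM in irradiated replicates 1 to 5. The sham libraries held 18.4 to 58.7 RPM with a median of 32.0 RPM, all below every irradiated library. MiR-10b-5p changed by 2.11 ± 0.21 on the log2 scale (adjusted p = 1.40e-09). The other arm, miR-10b-3p, was too low to be tested, with means of 1.94 RPM after WTLI and 0.245 RPM in sham lung.

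The partner miR-10a-5p, which differs from miR-10b-5p at a single base, fell. Its irradiated values were 828, 1627, 1053, 1121 and 1295 RPM, and the sham values ran from 1012 to 3166 RPM with a median of 1857 RPM. The groups overlapped, and only irradiated replicate 1 was below all sham libraries. The log2 fold change was -0.88 ± 0.22 (adjusted p = 0.00422), short of the fold minimum. MiR-10a-5p remained several times more abundant than miR-10b-5p in every library.

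MiR-196b-5p was near the detection limit in sham lung. The irradiated libraries held 9.21, 2.89, 2.80, 2.31 and 4.80 RPM, from 41, 13, 10, 9 and 22 reads. No sham library held more than 2 reads (0.634 RPM), and the sham median was 0. The fitted log2 fold change was 3.18 ± 0.39 (adjusted p = 9.55e-08), a value that depends on the 0.5 counts added before the logarithm and is not a bound. Its fitted value rose to 4.03 with library size alone and 4.59 in edgeR. In sham C57 mice the level was 30.6 RPM in leukocytes, 13.3 RPM in erythrocytes and 0.174 RPM in heart. MiR-196a-5p did not pass the filter, with means of 1.64 RPM after WTLI and 0.0384 RPM in sham lung. In bulk lung, a change in the number of cells of a type and a change in RNA per cell cannot be told apart.

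Many miRNAs of imprinted clusters were higher after WTLI. The Dlk1-Dio3 region of chromosome 12, expressed from the maternal allele, held 24 tested miRNAs, of which 9 were higher and 0 lower by adjusted p, against 9.43% higher and 7.14% lower of all tested miRNAs. In edgeR 13 of the 24 passed and in DESeq2 14, against 72 and 84 of all 350 tested. Changes were positive for 22 of the 24, and their median was 0.55 against -0.05 for all tested miRNAs. This median was 0.62 with TMM factors and 0.75 with library size alone. The summed level of the cluster was 530 to 725 RPM in irradiated and 263 to 478 RPM in sham libraries, without overlap. Members of a cluster can come from 1 transcript and are not independent of each other.

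In this cluster 3 members passed the fold minimum, miR-541-5p, miR-376b-3p and miR-376a-3p. MiR-541-5p, from an intron of the noncoding gene Mirg (chr12:109742409-109742498, plus strand), held 82.5, 52.8, 61.6, 50.3 and 46.7 RPM after WTLI. The sham libraries held 10.9 to 42.4 RPM (median 22.7 RPM), so the groups did not overlap. Its log2 fold change was 1.2 ± 0.18 (adjusted p = 5.51e-06), close to the fold minimum. It fell below that minimum without the 3 libraries that stood apart (1.15) and without sham replicate 2, 8 or 14 or irradiated replicate 1 (1.05 to 1.17), while the adjusted p stayed at 0.00017 or less.

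MiR-376b-3p held 6.74, 7.57, 8.68, 7.70 and 3.93 RPM, and the sham libraries held 0.634 to 7.26 RPM (median 2.39 RPM). Irradiated replicates 2, 3 and 4 were above all sham libraries, and the log2 fold change was 1.45 ± 0.27 (adjusted p = 0.000304). MiR-376a-3p was low in both groups, at 2.92, 4.23, 2.24, 3.34 and 3.27 RPM after WTLI and 0.266 to 4.13 RPM in sham lung (median 0.988 RPM). Its log2 fold change was 1.38 ± 0.36 (adjusted p = 0.00777), with every irradiated library above the sham median but 1 above the highest sham library. Other members passed the adjusted p with smaller changes. MiR-411-5p changed by 0.71, miR-379-5p by 0.69, miR-431-5p by 0.62 and miR-381-3p by 0.56 on the log2 scale. MiR-379-5p held 286, 210, 217.5, 180 and 214.7 RPM, all above the highest sham value of 172 RPM.

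**Figure D3:**
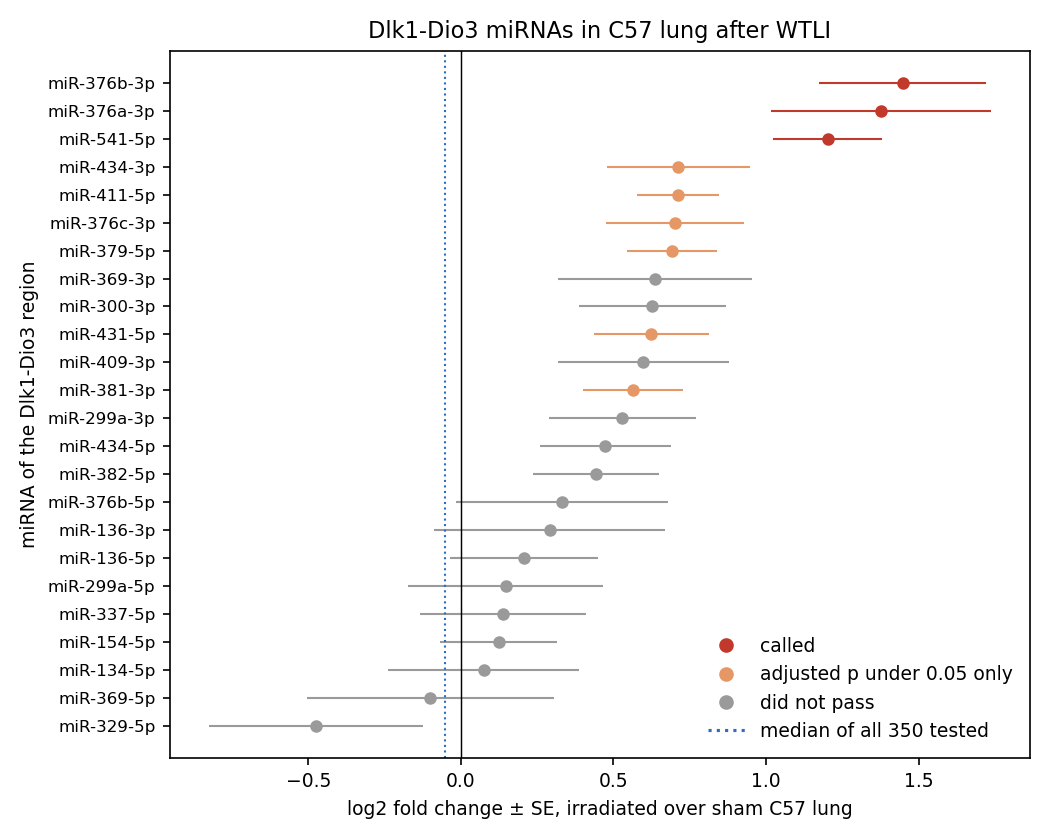
Log2 fold change (irradiated over sham C57 lung) with SE of the 24 tested miRNAs of the Dlk1-Dio3 cluster, sorted by change. Values run from -0.48 (miR-329-5p) to 1.45 (miR-376b-3p), and 22 of 24 points are above 0.

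Both arms of miR-335, from an intron of the paternally expressed gene Mest (chr6:30741299-30741396, plus strand), were higher. MiR-335-5p held 167, 338, 264, 140 and 202 RPM after WTLI, and the sham libraries held 43.1 to 158 RPM with a median of 77.2 RPM. Replicate 4 was the only irradiated library within the sham range. Log2 fold changes were 1.30 ± 0.25 for miR-335-5p (adjusted p = 0.000311) and 1.07 ± 0.24 for miR-335-3p (adjusted p = 0.00142).

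MiR-184-3p, a miRNA of the cornea and of neural stem cells, held 31.2, 13.1, 14, 12.3 and 29.9 RPM after WTLI. The sham libraries held 1.36 to 22.1 RPM (median 5.13 RPM), so all irradiated libraries were above the sham median and 2 were above every sham library. MiR-184-3p changed by 1.65 ± 0.32 (adjusted p = 0.000357). In the same fit the change was 4.09 ± 0.36 in lung of C3H mice (C3Hf/Sed/Kam, month 4, 7 irradiated and 8 sham libraries). The difference between the strains, -2.44 ± 0.48 (adjusted p = 0.00429), was the only call of 350 tests of that difference (0.286%), and 47 (13.4%) had an unadjusted p under 0.05. Strain and month cannot be told apart, and all C3H mice were female.

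Both arms of miR-21a were above the sham median in all irradiated libraries, and the 3p arm was called. The passenger arm miR-21a-3p held 71.0, 38.1, 57.9, 59.6 and 186 RPM, against 13.5 to 93.4 RPM in sham lung with a median of 17.8 RPM. Its log2 fold change was 1.41 ± 0.34 (adjusted p = 0.00373), 2.10 among libraries of letter B and 0.60 among those of letter A, and without irradiated replicate 5, the highest library, it was 1.11 (adjusted p = 0.0449), under the fold minimum. The guide arm miR-21a-5p was the most abundant miRNA after miR-126a-3p and held 159132, 80219, 106188, 111033 and 133696 RPM after WTLI. Its sham median was 33777 RPM, but sham replicates 1 and 4 held the highest sham values, up to 236828 RPM, while the other 13 sham libraries held at most 54069 RPM.

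The test of miR-21a-5p turned on these libraries. With all libraries its log2 fold change was 0.85 ± 0.40 (adjusted p = 0.136), which did not pass. Without sham replicates 1 and 4 and irradiated replicate 1 it was 1.17 (adjusted p = 4.82e-05), just under the fold minimum, and all 4 remaining irradiated libraries were above all remaining sham libraries. With library size alone in place of quantile normalisation it was 1.43 (adjusted p = 0.00188). After quantile normalisation a given rank has the same value in each library, which limits the change that the most abundant miRNAs can show. The same 2 sham libraries were the highest in the leukocyte marker sum, at 8303 and 9748 RPM against at most 5454 RPM in the other sham libraries.

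MiR-34a-5p, the p53 target, was above the sham median in all irradiated libraries and just missed the fold minimum. It held 1001, 1471, 1140, 1422 and 2107 RPM after WTLI. The sham libraries held 399 to 1793 RPM (median 573 RPM), and without sham replicates 1 and 4 the highest sham value was 676.4 RPM. MiR-34a-5p changed by 1.17 ± 0.15 on the log2 scale (adjusted p = 4.14e-07), and 1.39 without the 3 libraries that stood apart (adjusted p = 2.89e-12), where it was called. Among 8 tested p53-linked miRNAs, 2 were higher and 1 lower by adjusted p with a median change of -0.33, against 9.43% higher and 7.14% lower of all tested miRNAs. MiR-215-5p was the other member that rose (0.66), and miR-192-5p, of the same seed family, was lower (-0.42). The ciliated members miR-34b and miR-34c gave changes of -0.57 to -0.09 with adjusted p from 0.173 to 0.721.

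Other abundant miRNAs passed the adjusted p below the fold minimum. MiR-27b-3p, a regulator of endothelial sprouting and lipid metabolism, held 9360, 10368, 11060, 8754 and 9179 RPM against 5948 to 8374 RPM in sham lung. The groups did not overlap although the log2 fold change was only 0.54 (adjusted p = 0.000141). MiR-322-5p, the mouse counterpart of miR-424, changed by 0.98 (adjusted p = 0.000311), and was the only 1 of 12 tested miRNAs of its X-linked cluster to pass, against 16.6% of all tested miRNAs. It held 1452, 2208, 1395, 1082 and 2120 RPM, with replicate 4 within the sham range of 398 to 1189 RPM. MiR-148a-3p changed by 0.79 and the inflammation-linked miR-146b-5p by 0.94, both higher by adjusted p, but miR-146b-5p did not pass in edgeR (adjusted p = 0.224) or DESeq2 (adjusted p = 0.221).

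Several miRNAs that are abundant in brain were also higher. The highest sham level among the solid tissues (lung, heart and brain) was in brain for 10 of the 13 miRNAs called higher and for 5 of the 8 called lower, against 188 of the 350 tested (53.7%). MiR-9-5p, a neural miRNA, held 49.2, 33.8, 184, 356 and 58.3 RPM after WTLI, and the sham libraries held 14.1 to 111 RPM (median 28.8 RPM). Irradiated replicates 3 and 4, both males of letter B, were above all sham libraries, and the other 3 were within the sham range. MiR-9-5p changed by 1.33 ± 0.44 on the log2 scale (adjusted p = 0.0326), 2.27 for letter B and 0.06 for letter A. The call was lost without irradiated replicate 3 (1.12, adjusted p = 0.111) or replicate 4 (0.84, adjusted p = 0.171).

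MiR-137-3p, another neuronal miRNA, held 9.21, 2.67, 12.9, 27 and 7.64 RPM against 0.317 to 16.3 RPM in sham lung (median 3.42 RPM). Its log2 fold change was 1.34 ± 0.40 (adjusted p = 0.0185), at 2.30 for letter B and 0.08 for letter A. Without irradiated replicate 4 it was 0.97 (adjusted p = 0.0917). The neuronal markers miR-124-3p, miR-9-5p, miR-9-3p and miR-128-3p summed to 128, 164, 319, 616 and 187 RPM in irradiated replicates 1 to 5 and to 61.0 to 208 RPM in sham lung. Of these 4 markers 1, miR-9-5p, passed the adjusted p, and miR-124-3p changed by 1.89 with an adjusted p of 0.0549, while 3 of the 4 passed in edgeR and in DESeq2. Of all 350 tested miRNAs 9.43% were higher by adjusted p in limma, and 72 passed in edgeR and 84 in DESeq2. Without irradiated replicates 3 and 4 the change of miR-9-5p was 0.40 (adjusted p = 0.603) and that of miR-137-3p was 0.70 (adjusted p = 0.279). The part of the neuronal markers in the other results was not tested. Without these 2 libraries 17 miRNAs were called, 14 higher and 3 lower, and they held 11 of the 13 called higher with all libraries and 1 of the 8 called lower (miR-208b-3p).

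MiR-129-5p, a further brain-abundant miRNA, did not follow that pattern of libraries. It held 2.02, 5.34, 4.20, 4.11 and 3.71 RPM, and 4 of the 5 were above the highest sham value of 2.66 RPM. MiR-129-5p changed by 1.23 ± 0.31 (adjusted p = 0.00598), and fell short of the fold minimum (1.12 to 1.15) when irradiated replicate 2 or sham replicate 8 or 15 was left out. MiR-216a-5p, known from exocrine pancreas, held 5.62, 4.23, 2.52, 3.34 and 2.18 RPM against a sham median of 1.48 RPM and changed by 1.2 ± 0.36 (adjusted p = 0.0185), a call that held in 14 of 20 fits leaving out 1 library each and was lost without irradiated replicate 1 (0.99, adjusted p = 0.0968). The liver miRNA miR-122-5p was low in all libraries and changed by 1.13 (adjusted p = 0.0237), under the fold minimum, while the other 2 liver markers were at -0.42 (miR-192-5p, adjusted p = 0.0327) and -0.48 (miR-194-5p, adjusted p = 0.0568).

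Among the 8 miRNAs called lower, 4 came from introns of 1 gene. Htr2c is a serotonin receptor gene on the X chromosome known from the choroid plexus and neurons. It hosts miR-1912 (chrX:147009441-147009527), miR-1264 (chrX:147010655-147010676) and miR-1298 (chrX:147064905-147065002) on its own strand. The span of miR-1264 is that of its mature 3p arm, and the others are hairpins. This grouping by host gene was made after the values were seen and carries no test of its own. The log2 fold change was -1.96 ± 0.54 for miR-1912-3p (adjusted p = 0.0109), -1.37 ± 0.45 for miR-1298-3p (adjusted p = 0.0326) and -1.22 ± 0.43 for miR-1298-5p (adjusted p = 0.0442). It was -1.19 ± 0.40 for miR-1264-3p (adjusted p = 0.0327). MiR-1912-5p, for which RefSeq gave no sequence, had -0.81 ± 0.46 (adjusted p = 0.201) and was not called.

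The 4 called miRNAs summed to 55.5, 108, 99.1, 23.6 and 24.4 RPM in irradiated replicates 1 to 5. The sham sums had a lowest value of 11.2, a median of 118 and a highest of 170 RPM. Sham replicate 1, among the libraries referred to as standing apart, held the lowest sum, and the next sham library held 105.6 RPM. In all, 13 of the 15 sham libraries were above the highest irradiated library. MiR-1298-5p made up most of the sum, with 36.2, 71.9, 72.2, 17.2 and 15.7 RPM after WTLI and 7.26 to 122 RPM in sham lung (median 82.9 RPM).

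The call of miR-1912-3p held without any single sham library and was lost without irradiated replicate 5 (-1.33, adjusted p = 0.0899). The call of miR-1298-3p was lost without irradiated replicate 1, 4 or 5 (adjusted p from 0.0725 to 0.118). That of miR-1264-3p held in 14 of 20 fits leaving out 1 library each and that of miR-1298-5p in 6 of 20. With the C57 lung libraries alone only 1 miRNA in all was called lower, so at most 1 of the Htr2c calls was kept.

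By letter, changes of the 4 called miRNAs were -0.24 to -0.58 among libraries of letter A and -1.78 to -2.64 among those of letter B, and the difference between letters was not tested. Without the 3 libraries that stood apart all 4 were called, with adjusted p from 0.000204 to 0.00132. Without irradiated replicates 3 and 4 none of the 4 was called, with adjusted p from 0.0558 to 0.150, and with library size alone the adjusted p ran from 0.0477 to 0.0914. Mean sham levels of the sum were 120 RPM in lung, 833 RPM in brain and 0.992 RPM in heart. In the libraries with the highest neuronal marker sums, replicates 3 and 4, the Htr2c sum was 99.1 and 23.6 RPM.

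**Figure D4:**
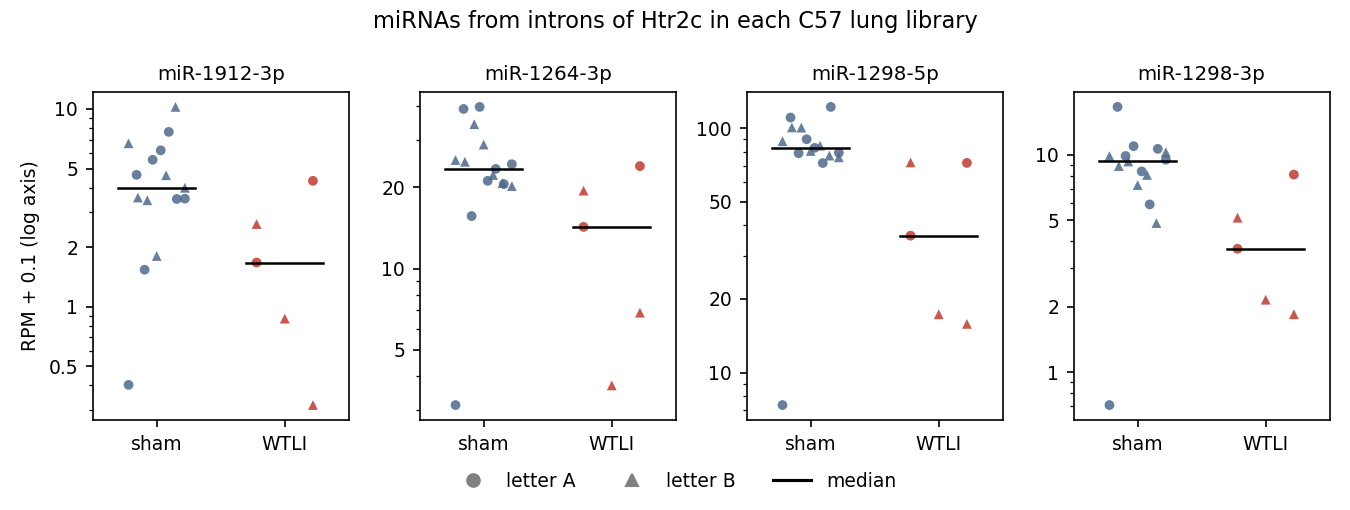
RPM plus 0.1 (y axis, log scale) of the 4 called miRNAs from introns of Htr2c in each sham and irradiated (WTLI) C57 lung library, with circles for letter A, triangles for letter B and lines at group medians. The group medians are lower after WTLI in each panel, and 1 sham library of letter A lies at 11.2 RPM in the sum of the 4.

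MiR-208b-3p, from an intron of the slow myosin heavy chain gene Myh7 (chr14:54975700-54975776, minus strand), showed the largest decrease. Irradiated libraries held 0.674, 1.56, 3.08, 1.28 and 3.06 RPM, and the sham libraries held 2.12 to 15.7 RPM with a median of 6.04 RPM. Replicates 1, 2 and 4 lay below all sham libraries, and all 5 were below the sham median, on 3 to 14 reads. MiR-208b-3p changed by -2.18 ± 0.47 on the log2 scale (adjusted p = 0.00117). MiR-499-5p, from an intron of the related gene Myh7b, was also lower (-1.15 ± 0.40, adjusted p = 0.0401), a call by adjusted p that library size alone (adjusted p = 0.295), edgeR (adjusted p = 0.145) and DESeq2 (adjusted p = 0.190) did not give.

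The other cardiac markers gave no such change. Their log2 fold changes were 0.00 for miR-1a-3p (adjusted p = 0.997), 0.00 for miR-133a-3p (adjusted p = 0.996) and -0.20 for miR-208a-3p (adjusted p = 0.752). The 5 cardiac markers summed to 2704 to 8561 RPM in irradiated and 2729 to 7699 RPM in sham libraries. In sham heart miR-208b-3p averaged 79.9 RPM. MiR-206-3p, the skeletal muscle marker, held 1120 and 119 RPM in sham replicates 1 and 4 and 1391 RPM in irradiated replicate 1, against at most 7.44 RPM in the other libraries.

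The remaining miRNAs called lower were miR-491-5p, miR-1941-3p and miR-3097-3p, none of them called by edgeR, DESeq2, TMM factors or library size alone. MiR-491-5p held 4.27, 25.2, 11.2, 6.16 and 8.07 RPM against 2.96 to 31.9 RPM in sham lung (median 21 RPM). Its log2 fold change was -1.17 ± 0.34 (adjusted p = 0.0156), with replicate 2 above the sham median. MiR-1941-3p and miR-3097-3p rested on few reads, 3 to 7 and 2 to 14 in the irradiated libraries (0.674 to 1.56 and 0.449 to 3.12 RPM, against 1.06 to 3.19 and 0.494 to 3.70 RPM in sham lung). MiR-1941-3p changed by -1.19 ± 0.38 (adjusted p = 0.0287) and miR-3097-3p by -1.26 ± 0.42 (adjusted p = 0.0356). Of 20 fits leaving out 1 library each, 8 called miR-491-5p, 10 called miR-1941-3p and 14 called miR-3097-3p. Without irradiated replicate 1 the changes were -0.91, -1.05 and -0.98, with adjusted p from 0.0913 to 0.173.

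Some members of the miR-30 family, which is abundant in differentiated lung, were lower with small changes. Of 11 tested members 4 were lower and 0 higher by adjusted p, against 7.14% lower and 9.43% higher of all tested miRNAs, and the median change was -0.33. In edgeR 5 of the 11 passed and in DESeq2 7, against 72 and 84 of all 350 tested. MiR-30a-5p held 7456, 11294, 14740, 17011 and 11455 RPM against 12312 to 29138 RPM in sham lung (median 20688 RPM) and changed by -0.66 (adjusted p = 0.00184). All 5 irradiated libraries were below the sham median, and 3 were below every sham library. MiR-30c-5p changed by -0.68 (adjusted p = 0.00111) and miR-30a-3p by -0.53 (adjusted p = 0.00161), while miR-30e-3p, at -0.33 (adjusted p = 0.0475), did not pass with library size alone (adjusted p = 0.373). MiR-672-3p, a low miRNA from the X chromosome, changed by -0.77 (adjusted p = 0.00167), which library size alone did not pass (adjusted p = 0.0700). It held 8.09, 6.90, 5.04, 8.73 and 11.6 RPM against 8.63 to 20.3 RPM in sham lung (median 10.1 RPM). Both arms of miR-676, from an intron of the ectodysplasin gene Eda on the X chromosome, were lower, at -1.05 and -0.96.

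Lists of miRNAs linked to fibrosis were read against the 9.43% higher and 7.14% lower of all tested miRNAs. Of 11 tested miRNAs reported to promote fibrosis 1 was higher (miR-21a-3p) and 0 were lower, with a median change of 0.18. Of 13 reported to restrain it 0 were higher and 1 was lower (miR-326-3p, -0.47, adjusted p = 0.0327), with a median of -0.34. For the restraining list 4 of 13 passed the adjusted p in edgeR and 5 of 13 in DESeq2, where 72 and 84 of all 350 passed. For the promoting list 1 of 11 passed in each. Without the 3 libraries that stood apart 3 of 11 promoting and 1 of 13 restraining miRNAs passed in limma, where 68 of all 350 passed. In limma 6 of the 13 and 5 of the 11 had an unadjusted p under 0.05. The miR-29 family, repressors of collagen genes, had 0 of 5 members past the adjusted p in limma (2 at an unadjusted p under 0.05), 0 in edgeR and 1 in DESeq2, with a median of -0.23. MiR-26a-5p, an abundant member of the restraining list, changed by -0.56 (adjusted p = 0.0838) and passed in edgeR (adjusted p = 0.00788).

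Most other families did not pass. None of 16 let-7 miRNAs (median 0.03), 16 miRNAs of the miR-17-92 group (median -0.10), 10 of the miR-15/16 family (median 0.00) or 9 of the miR-200 family (median -0.01) passed the adjusted p. The same held for 10 of miR-99, miR-100 and miR-125 (median -0.30), 6 of miR-199 and miR-214 (median 0.03), 7 of the Sfmbt2 cluster (median -0.07), 3 of the miR-183 cluster (median 0.40) and the hypoxia miRNA miR-210-3p (-0.16). All 7 tested miRNAs of the miR-181 family had negative changes (median -0.41) and 0 passed. In these lists the unadjusted p was under 0.05 for 3 miRNAs of the miR-17-92 group, 2 each of miR-199 and miR-214, the miR-183 cluster and the miR-181 family, 1 each of the miR-15/16 family and the Sfmbt2 cluster and 0 in the others. In edgeR 1 of the miR-17-92 group, 1 of the miR-183 cluster and 2 of the miR-181 family passed the adjusted p. In DESeq2 these counts were the same with 1 more in miR-99, miR-100 and miR-125. Of all 350 tested miRNAs 72 passed in edgeR and 84 in DESeq2. The counts that follow stand against 9.43% higher and 7.14% lower of all tested miRNAs. In the miR-23/24/27 clusters 2 of 8 were higher (miR-27b-3p and miR-23b-3p), in miR-34 and miR-449 2 of 8 were higher (miR-34a-5p and miR-449a-5p, with 4 of 8 past the adjusted p in edgeR and in DESeq2), in miR-221 and miR-222 1 of 4 was higher (miR-221-3p, 0.50) and in miR-146 and miR-155 1 of 4 was higher (miR-146b-5p). Of these, miR-23b-3p (adjusted p = 0.369 in edgeR and 0.323 in DESeq2) and miR-146b-5p did not pass in the other tools. In miR-101 1 of 3 was lower (miR-101c, -0.69) and in miR-143 and miR-145a 1 of 4 was lower (miR-145a-5p, -0.53).

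Cell type markers were compared in the same fit, in which 9.43% of all tested miRNAs were higher and 7.14% lower by adjusted p. None of 4 erythrocyte markers passed the adjusted p (81.0 to 471 RPM in sum after WTLI, 105.9 to 2121 RPM in sham lung). None of 5 leukocyte markers passed, although their sum was above the sham median in all 5 irradiated libraries (5564 to 6829 RPM, and 2393 to 9748 RPM in sham lung). Sham replicates 1 and 4 alone were above the irradiated libraries, and the other 13 sham sums were at most 5454 RPM. Without the 3 libraries that stood apart, where 68 of all 350 miRNAs passed the adjusted p, 3 of the 5 leukocyte markers were higher by it. These were miR-142a-5p (0.90, adjusted p = 0.0128), miR-142a-3p (0.52, adjusted p = 0.0125) and miR-155-5p (0.64, adjusted p = 0.00629). The macrophage marker miR-511-3p changed by 0.92 (adjusted p = 0.154), and 0 of 5 epithelial and 0 of 2 endothelial markers passed. The endothelial sum was below the sham median of 385622 RPM in all 5 irradiated libraries (285337 to 352260 RPM), and the fitted direction depended on scaling, with miR-126a-3p at -0.15 with library size alone and 0.26 after quantile normalisation. Of 5 ciliated markers 1 was higher (miR-449a-5p, 0.76, adjusted p = 0.0326), and of 5 mesenchymal markers 1 was lower. The neuroendocrine list had 2 higher (miR-7b-5p and miR-7a-5p) and 1 lower (miR-375-3p, -0.62, adjusted p = 0.0200). At an unadjusted p under 0.05 there were 3 of 5 leukocyte, 4 of 5 mesenchymal and 1 of 4 erythrocyte markers. The count was 0 for epithelial and endothelial markers, and the share of all tested miRNAs was 33.4%. DESeq2 passed 1 leukocyte and 1 erythrocyte marker by adjusted p where edgeR passed 0, against 84 and 72 of all 350. The part of cell composition in the other results was not tested.

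The 10 most abundant miRNAs made up 73.9% of the counts, and 0 of 10 passed the adjusted p, with log2 fold changes from -0.56 (miR-26a-5p) to 0.85 (miR-21a-5p). MiR-126a-3p alone averaged 348095 RPM in sham and 309589 RPM in irradiated lung.

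The heart lay in the same radiation field, and the irradiation change was compared between lung and heart of the C57 mice in a joint fit. Of 355 miRNAs tested, the change differed for 12 (3.38%), higher in lung for 5 (1.41%) and lower for 7 (1.97%). By adjusted p alone 20 differed (5.63%), 11 higher (3.1%) and 9 lower (2.54%). MiR-7b-5p changed by 4.65 in lung and by 0.25 in heart. MiR-376a-3p and miR-335-3p, of the imprinted loci, changed by 1.61 and 1.09 in lung and by -0.32 and -0.14 in heart. MiR-10a-5p and miR-208b-3p fell in lung (-1.06 and -2.49), while their values in heart were 0.50 and 0.41.

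MiR-10b-5p was not among these 12. In the joint fit it changed by 2.08 in lung and by 2.03 in heart (adjusted p = 4.53e-08 in heart), a difference of 0.05 ± 0.34 (SE). Lung and heart libraries came from the same animals, and the joint fit took them as independent.

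**Figure D5:**
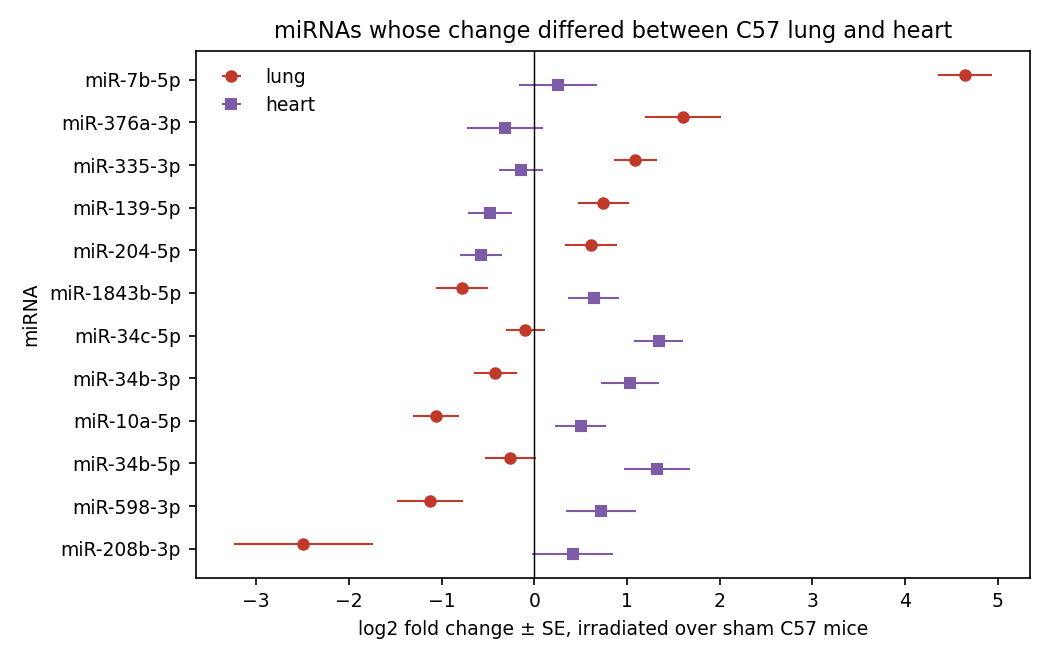
Log2 fold change with SE (x axis, irradiated over sham) in lung (circles) and heart (squares) of C57 mice for the 12 miRNAs whose change differed between the tissues. MiR-7b-5p is at 4.65 in lung and 0.25 in heart, and miR-208b-3p at -2.49 and 0.41.

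In C3H lung 34 of the 350 miRNAs were called (9.71%), 22 higher (6.29%) and 12 lower (3.43%), in a fit that shares its estimate of spread with C57 lung. Of the 13 called higher in C57 lung 11 were among the 22, and of the 8 called lower 1 was among the 12. The other 9 of the 21 were miR-137-3p, miR-9-5p, the 4 miRNAs of Htr2c introns, miR-491-5p, miR-1941-3p and miR-3097-3p. A call in only 1 strain is not a difference between the strains, and miR-184-3p was the only miRNA for which that difference was called.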

How the data were processed

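Lung small RNA libraries were prepared with the QIAseq miRNA kit. The authors trimmed and aligned reads to mouse miRNAs (mm10) in the BaseSpace cloud, rejected runs with few miRNA reads, and deposited raw counts for 1915 mature miRNAs in each library, with no normalisation. Use of molecular identifiers and handling of multiply matching reads were not given in the sources used here. Every column named a sample (0 of no sample).

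All 35 lung libraries were fitted in 1 model of 4 groups (strain by treatment). Counts were filtered by filterByExpr of edgeR 4.0.16 (minimum count 10, minimum total 15), converted to log2 RPM by voom with quantile normalisation and tested with limma 3.58.1 in R 4.3.3 (moderated, two-sided). P-values were adjusted by Benjamini-Hochberg over all miRNAs tested, and a call needed an adjusted p under 0.05 and a fold of at least 2.25. DESeq2 1.42.0 and edgeR's quasi-likelihood test were alternatives. Lung and heart of the C57 mice were fitted jointly without a term for the animal, although the titles give both tissues the same animal number. The animal as a replicate block was an alternative, with a block correlation of 0.134. No 2 lung libraries of a group were alike within sampling noise (chi-square per degree of freedom at least 55.3).

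Named were all called miRNAs, the 10 of smallest adjusted p under the fold minimum, other arms and shared seeds, leading members of each list and marker set, the 10 most abundant, and calls of the other comparisons. The comparison, miRNA lists and markers were chosen with earlier results of these data known. Setting aside libraries that stood apart, and fits of all lung libraries of 1 letter or of C57 males with C3H, were added after the data were seen. Sequences and places came from RefSeq (302 of 350 tested miRNAs matched) and GENCODE hosts, build GRCm38.p6. The fits were tested on simulated counts.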

Additional observations from a re-analysis of the deposited data

Results flagged for a closer look

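Among the differences between groups of mice or tissues, 13 were called by a test of the difference itself. MiR-184-3p rose less in C57 than in C3H lung, by -2.44 on the log2 scale. For the other 12, the difference is the log2 fold change in C57 lung minus that in C57 heart. It was 4.39 for miR-7b-5p, 1.93 for miR-376a-3p, 1.23 for miR-335-3p, 1.22 for miR-139-5p and 1.19 for miR-204-5p. MiR-139-5p and miR-204-5p had opposite signs in lung (0.75 and 0.61) and heart (-0.47 and -0.58). It was -1.42 for miR-1843b-5p, -1.84 for miR-598-3p, -1.56 for miR-10a-5p and -2.91 for miR-208b-3p. For the ciliated cell miRNAs it was -1.44 (miR-34c-5p), -1.45 (miR-34b-3p) and -1.58 (miR-34b-5p), and their changes in lung were -0.10, -0.42 and -0.26 against 1.34, 1.03 and 1.32 in heart. On the log2 scale no irradiated library stood far from the others in 21 tests of called miRNAs within the group of 5. On the RPM scale replicate 5, at 186 RPM for miR-21a-3p, had a gap of 0.778 of the group's range against a critical value of 0.71. Chance gives such a gap in about 1 in 20 groups of normal values. The same 21 miRNAs were tested, so 1 such gap does not set replicate 5 apart.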

How the results depend on the processing

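Against 21 calls in C57 lung, 58 miRNAs passed with no fold minimum, 8 were called when every library had to hold 10 counts, 11 with the C57 lung libraries alone, 3 in C57 males alone and 3 in letter A alone. Fits chosen after seeing the data gave 6 calls in all lung libraries of letter A, 32 in those of letter B and 6 in C57 males with all C3H libraries. MiR-7b-5p and miR-10b-5p were called in males alone and in letter A alone. Leaving out 1 library at a time gave 15 to 27 calls, and 8 of the 21 were called in all 20 such fits. The strain difference gave 1 call in each fit but that with 10 counts in every library, which gave 0, and 1 to 1 without single libraries. Against 12 calls between lung and heart, 20 passed with no fold minimum, 7 were called with library size alone, 7 with 1 count in any library and 3 with 10 counts in every library. Leaving out irradiated libraries gave 6 to 11, with 7 without replicate 1 and 6 without replicate 5. With the animal as a replicate block 13 were called between lung and heart, 6 higher and 7 lower, and no other comparison held paired libraries. For 31 named miRNAs, 900 of 1116 alternative values kept their call or their lack of a call, 21 gained the call and the rest lost it. Reversal was counted only where either fit gave a call, and 0 values reversed. An uncalled miRNA that lost its adjusted p counts as kept. Few reads limit, among others, miR-196b-5p, miR-376a-3p, miR-208b-3p, miR-216a-5p, miR-1912-3p, miR-1941-3p and miR-3097-3p. Where not stated, causes were not tested.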
